A study of Mus musculus with 10 samples.

Results

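Genes of glucose transport, glycolysis, lactate export and the pentose phosphate pathway, 33 in all, were read in 2 deposited gene count tables of mouse RNA. One table holds hearts and the other cultured macrophages. The genes were taken by symbol, and all 33 were found among the 55357 gene identifiers of each table. The hearts came from Cd163-/- male mice on a C57BL/6 background, which lack the macrophage scavenger receptor for haptoglobin-haemoglobin complexes. They had been given recombinant mouse interleukin-10 (IL-10, n = 3), an anti-inflammatory cytokine, or saline (n = 3). Per the labels, IL-10 was given subcutaneously, at a dose of 50 µg/kg/day, on set days between day 0 and day 27 following transverse aortic constriction, a narrowing of the aorta that loads the left ventricle, and the design text gives an age of 8 weeks at surgery. Whether each heart had surgery is not in its own labels, and every heart carries the Cd163-/- genotype, so IL-10 in wild-type or sham-operated hearts was not analysed here. The macrophages were Cd163-/- (n = 2) or wild type (n = 2). They were drawn from the peritoneum after thioglycolate, kept by adherence to the dish, and all received 100 nM dexamethasone, a synthetic glucocorticoid, for 48 h. No macrophage without dexamethasone was analysed here. The labels do not state whether replicates were separate mice or dishes, and p-values therefore reflect only how far these samples spread, which may be technical.

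Glucose enters cells through facilitative transporters of the GLUT family, is trapped by hexokinases, and is committed to glycolysis at phosphofructokinase, whose strongest activator is fructose 2,6-bisphosphate. Pyruvate made at the end of glycolysis is burned in mitochondria or turned into lactate, which leaves the cell through monocarboxylate transporters, and the pentose phosphate pathway draws off glucose 6-phosphate to make NADPH and ribose. The adult heart burns mostly fatty acids and uses muscle isoforms of these enzymes, and under pressure overload it is known to draw more on glucose, while inflammatory macrophages are known for a high rate of glycolysis driven in part by the transcription factor HIF-1α.

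Libraries held 14070367 to 14823570 counts in IL-10 hearts and 13483335 to 14939465 counts in saline hearts, and 17213957 to 18619288 counts in Cd163-/- and 16729749 to 17924057 counts in wild-type macrophages. Cd163, the targeted gene, had 9 and 14 counts in Cd163-/- and 352 and 205 in wild-type macrophages. In the hearts, all labelled Cd163-/-, it had 34 to 43 counts after IL-10 and 45 to 57 after saline, and they have no wild-type heart to be set against. Cardiomyocyte markers summed to 39535 to 46170 CPM (counts per 1000000 counts of the scaled library) in IL-10 hearts and 42683 to 50737 CPM in saline hearts. Macrophage markers summed to 21228 to 22022 CPM in Cd163-/- and 24511 to 28698 CPM in wild-type macrophages. Most of these sums was Lyz2, with means of 16930 CPM in Cd163-/- and 21028 CPM in wild-type macrophages. The 2 wild-type macrophage libraries stood further apart than any other pair of replicates, with a chi-square per degree of freedom of 53.0 between their counts, against 20.9 between the Cd163-/- pair and 10.7 to 22.1 between hearts of one group. In bulk RNA, fewer cells of a type and less RNA per cell cannot be told apart.

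Levels can be compared between genes only per length, and are given here as the group mean of CPM per kb of exon (the union of a gene's annotated exons). The 4 highest levels in hearts were those of Ldhb, Aldoa, Pgam2 and Eno3. Ldhb, the lactate dehydrogenase subunit of oxidative tissue, was at 610.5 in IL-10 and 514 in saline hearts, Aldoa, the muscle aldolase, at 574 in IL-10 and 648 in saline hearts, Pgam2, the muscle phosphoglycerate mutase, at 469.7 in IL-10 and 373 in saline hearts, and Eno3, the muscle enolase, at 413 in IL-10 and 399.8 in saline hearts. The insulin-responsive transporter gene Slc2a4 (GLUT4) was at 54.6 in IL-10 and 37.7 in saline hearts, far above Slc2a1 (GLUT1) at 3.82 in IL-10 and 6.66 in saline hearts. In macrophages Aldoa was the highest, at 295 in Cd163-/- and 451 in wild-type macrophages. Pgk1, phosphoglycerate kinase, was at 158 in Cd163-/- and 328 in wild-type macrophages, Ldha, the lactate dehydrogenase subunit of glycolytic tissue, at 189 in Cd163-/- and 317 in wild-type macrophages, and Pkm, pyruvate kinase, at 241 in Cd163-/- and 288 in wild-type macrophages. Slc2a4 was at 0.0678 in Cd163-/- and 0.0793 in wild-type macrophages, and Pgam2 at 3.62 in Cd163-/- and 2.32 in wild-type macrophages. The pentose phosphate enzyme genes were also at higher values per kb in macrophages, with Pgd at 65.5 in Cd163-/- and 95.5 in wild-type macrophages, against 4.11 in IL-10 and 6.11 in saline hearts. The 2 tables were scaled separately, so no test was made across them. Cardiomyocyte markers were not at 0 in the macrophage libraries, where they summed to 33.3 and 54.2 CPM in Cd163-/- and 43.7 and 66.9 CPM in wild-type cells. The part of such RNA in the low values of muscle isoforms there was not tested.

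In IL-10 hearts Slc2a4 and Pfkm, the muscle transporter and the muscle phosphofructokinase, rose relative to saline hearts. Slc2a1, Pfkp and Eno1, the forms of many other cell types, and the lactate exporter gene Slc16a3 fell. The pentose phosphate genes Pgd, Taldo1 and Tkt fell too. Of 33 genes 31 passed the count filter, and Slc2a6 (5 to 20 counts a heart) and Aldoc (3 to 6 counts) did not. Among the 31, 2 rose and 7 fell by edgeR's quasi-likelihood test with a Benjamini-Hochberg adjusted p under 0.05 over all 13718 tested genes, where 6.86% of all tested genes rose and 6.7% fell (13.6% called). The count of rises is near that background and the count of falls is above it. The genes were chosen with earlier results of these data known, so this is a description only. The median log2 fold change over the 31 was -0.23, beside -0.0079 over all tested genes, and 11 of the 31 were above 0. The groups did not overlap, as lower, for 11 of them and, as higher, for 2, against 15.8% and 15.7% of all tested genes (31.6% in either direction). The number of called genes moved when 1 heart was left out, as did the number over the whole table, which was 1860 with all hearts. Without saline replicate 1, 2 or 3 there were 0, 3 and 1 rises and 6, 9 and 3 falls (1012, 1942 and 1147 genes over the whole table). Without IL-10 replicate 1 or 2 there were 0 rises and 4 falls (1258 and 897 genes). Without IL-10 replicate 3 there were 4 rises and 6 falls (1968 genes).

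**Figure D1:**
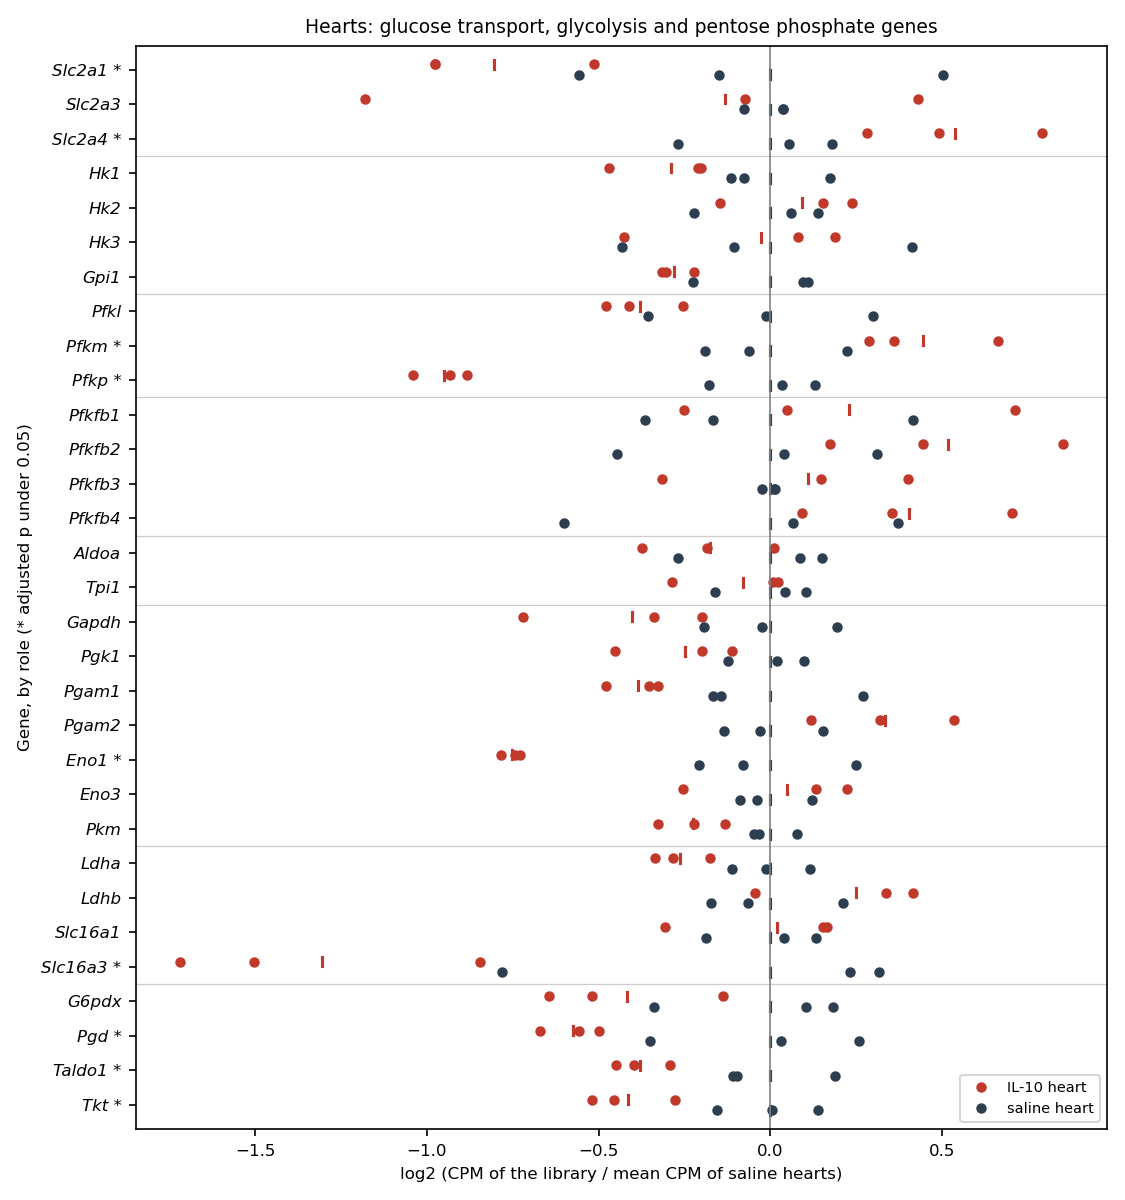
Each point is 1 heart, as log2 of its CPM over the mean CPM of the 3 saline hearts, for the 31 genes that passed the count filter, in groups by role. In each row the upper points are IL-10 hearts and the lower points saline hearts, short bars are group means of CPM, and a star marks an adjusted p under 0.05. Pfkp, Eno1 and Pgd show 3 IL-10 hearts below all saline hearts, while Slc2a4 and Pfkm show them above.

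The promoters of 5 genes are printed. Slc2a1, Pfkp and Slc16a3 were the genes that fell in both comparisons, Slc2a6 had the largest fall in macrophages, and Ldhb rose there. Each line gives 150 bases up to the transcription start, 5′ to 3′ on the gene's strand, from RefSeq on build GRCm38.p6. Capitals mark the letters ACGTG or GCGTG, the core bound by hypoxia-inducible factors, on either strand (CACGT or CACGC where it lies on the other strand).
Slc2a1 (chr4:119108595-119108744, plus strand): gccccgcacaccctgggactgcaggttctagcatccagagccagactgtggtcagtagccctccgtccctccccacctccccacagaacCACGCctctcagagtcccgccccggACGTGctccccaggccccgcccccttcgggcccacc
Pfkp (chr13:6648772-6648921, minus strand): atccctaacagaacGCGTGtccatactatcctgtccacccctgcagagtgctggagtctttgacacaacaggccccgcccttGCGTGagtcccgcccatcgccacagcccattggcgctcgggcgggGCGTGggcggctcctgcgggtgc
Slc16a3 (chr11:120948917-120949066, plus strand): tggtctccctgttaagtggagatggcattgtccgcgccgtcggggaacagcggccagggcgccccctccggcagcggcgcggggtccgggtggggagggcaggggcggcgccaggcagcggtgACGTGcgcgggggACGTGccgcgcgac
Slc2a6 (chr2:27027999-27028148, minus strand): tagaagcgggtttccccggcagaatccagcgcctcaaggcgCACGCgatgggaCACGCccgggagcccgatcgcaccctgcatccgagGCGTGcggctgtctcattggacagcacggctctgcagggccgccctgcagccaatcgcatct
Ldhb (chr6:142507958-142508107, minus strand): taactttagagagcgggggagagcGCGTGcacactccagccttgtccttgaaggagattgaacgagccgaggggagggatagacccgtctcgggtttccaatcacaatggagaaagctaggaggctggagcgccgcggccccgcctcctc

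The Slc2a1 stretch holds 1 ACGTG close to its start, Slc16a3 holds 2, and Pfkp, Slc2a6 and Ldhb, which rose, hold only the GCGTG form. Over the 250 bases before the start, 38 of 49 promoters of 31 genes (Slc2a3 and Slc2a4 were not in the table) held ACGTG or GCGTG on either strand, or 77.6%, against 38.6% of all 32851 promoters. ACGTG alone was in 17 of 49, or 34.7%, against 16.6%, and the E-box CACGTG, which contains ACGTG and is read by MYC and ChREBP, in 5 of 49, or 10.2%, against 6.02%. The median GC content was 59.2% in these promoters and 52.4% in all. By gene, ACGTG or GCGTG was in some promoter of all 7 genes that fell in IL-10 hearts and of 18 of 21 that were not called there, and of 11 of 12 that fell in Cd163-/- macrophages and 16 of 18 that were not called. ACGTG alone was in 2 of 7 that fell and 10 of 21 that were not called in hearts, and in 7 of 12 that fell and 6 of 18 that were not called in macrophages. The ACGTG shares thus differ in opposite directions in the 2 comparisons. Of the genes that rose, only Pfkm in hearts and Ldhb in macrophages had a promoter to search. Both held ACGTG or GCGTG, and Pfkm also held ACGTG alone and the E-box. A match is a string of letters and not a measured binding site.

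Among the transporters, Slc2a4 (chr11:69942539-69948188), the insulin-responsive GLUT4 of muscle and fat, had 227, 184 and 159 CPM in IL-10 hearts, against 109, 148 and 136 CPM in saline hearts. All 3 IL-10 hearts lay above all 3 saline hearts. It averaged 190.0 ± 34.1 CPM in IL-10 hearts and 131 ± 20.2 CPM in saline hearts (SD, n = 3 each), a rise of 0.54 on the log2 scale (SE 0.14, edgeR quasi-likelihood adjusted p = 0.0199), which missed the threshold without IL-10 replicate 1 or 2, without saline replicate 1 and when scaled by library size alone (adjusted p from 0.0547 to 0.112). Slc2a1 (chr4:119108711-119137983), the basal GLUT1 of most cells, had 11.9, 16.4 and 11.9 CPM in IL-10 hearts, against 21.1, 15.9 and 33.1 CPM in saline hearts. The groups overlapped by 1 heart, since saline replicate 2 lay below IL-10 replicate 2, and saline replicate 3 was the highest. Slc2a1 fell by the test (log2 -0.81 ± 0.21 SE, edgeR adjusted p = 0.0195), and without saline replicate 3 the value was -0.46 (adjusted p = 0.142), while without IL-10 replicate 1 or 3 the adjusted p was 0.0669 and 0.0596. Slc2a3, the high-affinity GLUT3, was at 12 to 39 counts a heart and gave -0.13 (edgeR adjusted p = 0.860) with overlapping groups. Slc2a6, the GLUT6 of intracellular membranes, was untested at 0.365 to 1.28 CPM.

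None of the hexokinases was called, nor was Gpi1. Hk1, the widespread hexokinase, had 123, 102 and 122 CPM in IL-10 hearts, against 134, 131 and 159.8 CPM in saline hearts, and every IL-10 heart was below every saline heart, yet the log2 difference of -0.29 did not pass (edgeR adjusted p = 0.121). Hk2, the insulin-regulated hexokinase of muscle, had 168, 159 and 129 CPM in IL-10 hearts, against 122, 148 and 157 CPM in saline hearts. Its groups overlapped (log2 0.09 ± 0.13 SE, edgeR adjusted p = 0.692). The log2 values were -0.04 for Hk3, the hexokinase of myeloid cells, which was at under 4 CPM in hearts, and -0.28 for Gpi1, which converts glucose 6-phosphate to fructose 6-phosphate (edgeR adjusted p = 0.957 and 0.142).

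The phosphofructokinase subunits went in opposite directions. Pfkm (chr15:98092589-98132451), the muscle subunit, had 458, 371 and 353 CPM in IL-10 hearts, against 254, 338 and 277 CPM in saline hearts. All IL-10 hearts were above all saline hearts, the closest being IL-10 replicate 3 and saline replicate 2. It rose by 0.44 on the log2 scale (SE 0.14, edgeR quasi-likelihood adjusted p = 0.0406), a call that was lost under 7 of 16 alternatives, among them the left-out IL-10 replicate 1 or 2 and saline replicate 1 or 3 (adjusted p from 0.0831 to 0.183). Pfkp (chr13:6579768-6648777), the platelet-type subunit, had 64.6, 66.8 and 60.0 CPM in IL-10 hearts, against 109, 126 and 135 CPM in saline hearts. The IL-10 hearts formed a narrow group well below the saline hearts. Pfkp averaged 63.8 ± 3.51 CPM in IL-10 hearts and 123 ± 13.3 CPM in saline hearts (SD, n = 3 each). It fell (log2 -0.95 ± 0.11 SE, edgeR adjusted p = 7.68e-05), and was called under all 16 alternatives run. Pfkl, the liver subunit, had 56.0, 50.2 and 47.9 CPM in IL-10 hearts, against 52.1, 66.1 and 82.1 CPM in saline hearts. The groups touched, because saline replicate 1 lay among the IL-10 hearts, and the difference did not pass (log2 -0.38 ± 0.14 SE, edgeR adjusted p = 0.0868).

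Of the bifunctional enzymes that make and break down fructose 2,6-bisphosphate, none of the 4 was called and all 4 log2 values were above 0. Pfkfb2, the heart isoform, had 33.4, 25.2 and 20.9 CPM in IL-10 hearts, against 19.0, 23.0 and 13.6 CPM in saline hearts. IL-10 replicate 3 fell below saline replicate 2, and the log2 value of 0.52 (SE 0.19) had an edgeR adjusted p = 0.0752, against 0.0248 without IL-10 replicate 3 and 0.0227 without saline replicate 2. Pfkfb3, the inducible isoform, had 6.08, 8.37 and 9.98 CPM in IL-10 hearts, against 7.61, 7.44 and 7.62 CPM in saline hearts. The saline hearts were close together and the IL-10 hearts lay on both sides of them (log2 0.11 ± 0.19 SE, edgeR adjusted p = 0.764). Pfkfb4 gave 0.40 and Pfkfb1, the liver isoform, 0.21 on the log2 scale (edgeR adjusted p = 0.322 and 0.733).

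In the trunk of the pathway, Eno1 alone was called. Aldoa gave -0.17 and Tpi1, triose phosphate isomerase, -0.08 on the log2 scale, both with overlapping groups (edgeR adjusted p = 0.479 and 0.739). Eno1 (chr4:150236721-150248879), the enolase of most cell types, had 147, 153 and 151 CPM in IL-10 hearts, against 239, 219 and 301 CPM in saline hearts. The 3 IL-10 hearts were nearly equal and below every saline heart. It fell in IL-10 hearts (log2 -0.75 ± 0.13 SE, edgeR adjusted p = 0.00105) and stayed called under all 16 alternatives run, counts of 4 near-identical genes included. Its muscle counterpart Eno3 had 811, 762 and 583 CPM in IL-10 hearts, against 677, 756 and 653 CPM in saline hearts, with the groups intermixed (log2 0.05 ± 0.14 SE, edgeR adjusted p = 0.858). Neither phosphoglycerate mutase was called. Pgam1, the form of most tissues, was lower in each IL-10 heart than in each saline heart, at 53.3, 52.4 and 48.0 CPM in IL-10 hearts, against 59.5, 60.5 and 80.6 CPM in saline hearts (log2 -0.39 ± 0.13 SE, edgeR adjusted p = 0.0517), and the difference passed in 5 of 16 alternatives, such as without saline replicate 2 (adjusted p = 0.0381). Pgam2 gave 0.33 with 1 IL-10 heart below 1 saline heart (edgeR adjusted p = 0.105).

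Gapdh, glyceraldehyde 3-phosphate dehydrogenase, had 269, 244 and 187 CPM in IL-10 hearts, against 269.9, 353 and 304 CPM in saline hearts. Saline replicate 1 lay just above IL-10 replicate 1, so the groups did not overlap, and the difference did not pass (log2 -0.40 ± 0.14 SE, edgeR adjusted p = 0.0723). Its value is uncertain, since 93 near-identical genes held counts equal to 39.0% to 50.8% of Gapdh's own in hearts, and with their counts added the log2 value was -0.40 (adjusted p = 0.0729). Pgk1 gave -0.25 (edgeR adjusted p = 0.202). Pkm, whose spliced M1 and M2 forms are counted together, had 709.9, 666 and 620.1 CPM in IL-10 hearts, against 760.3, 753 and 821 CPM in saline hearts. The IL-10 hearts were below the saline hearts throughout (log2 -0.23 ± 0.12 SE, edgeR adjusted p = 0.229). Values of Pfkm, Gpi1, Pkm and Pfkfb2 carry the limit that another annotated gene covers 10.2%, 11.5%, 15.3% and 17.4% of their exon bases, in that order.

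Of the lactate genes Slc16a3 fell and the other 3 were not called. Slc16a3 (chr11:120948480-120960868), which encodes MCT4, the exporter of cells that make much lactate, had 2.97, 5.44 and 3.44 CPM in IL-10 hearts, against 12.2, 5.69 and 11.5 CPM in saline hearts. IL-10 replicate 2 was just below saline replicate 2, and the other hearts were well apart. It was 2.48 times lower in IL-10 hearts (log2 -1.31 ± 0.28 SE, edgeR adjusted p = 0.00557), with 43 to 74 counts after IL-10 and 78 to 179 after saline, and it stayed called under all 16 alternatives run. Slc16a1, the importer MCT1 of heart muscle, had 286, 288 and 207 CPM in IL-10 hearts, against 225, 281 and 264 CPM in saline hearts, with intermixed groups (edgeR adjusted p = 0.945). Ldha had 637, 686 and 615 CPM in IL-10 hearts, against 718, 769 and 841 CPM in saline hearts. All 3 IL-10 hearts were lower, and the difference did not pass (log2 -0.26 ± 0.12 SE, edgeR adjusted p = 0.162). Ldhb had 1075, 1018 and 782 CPM in IL-10 hearts, against 771, 933 and 715 CPM in saline hearts. The groups overlapped, with IL-10 replicate 3 low and saline replicate 2 high (log2 0.25 ± 0.15 SE, edgeR adjusted p = 0.284).

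All 4 pentose phosphate genes had log2 values below 0 in IL-10 hearts and 3 fell. Pgd (chr4:149149991-149166771), 6-phosphogluconate dehydrogenase, which makes NADPH in the oxidative branch, had 26.8, 24.8 and 27.9 CPM in IL-10 hearts, against 40.3, 30.9 and 47.1 CPM in saline hearts. Each IL-10 heart was below each saline heart (log2 -0.57 ± 0.14 SE, edgeR adjusted p = 0.0122). The call was lost without IL-10 replicate 2 or saline replicate 3 (adjusted p = 0.0742 and 0.0777). Taldo1, transaldolase of the non-oxidative branch, had 59.2, 55.2 and 53.1 CPM in IL-10 hearts, against 67.3, 67.9 and 82.7 CPM in saline hearts. Tkt, transketolase of the same branch, had 19.2, 18.4 and 21.7 CPM in IL-10 hearts, against 29.0, 23.6 and 26.4 CPM in saline hearts. For both the groups did not overlap, by a small margin. Their log2 fold changes were -0.38 (SE 0.11) and -0.41 (SE 0.13), with edgeR quasi-likelihood adjusted p = 0.0354 and 0.0401. These calls were lost under 6 and 5 of 16 alternatives, for both without IL-10 replicate 1 or 2 or saline replicate 1 or 3. G6pdx, glucose 6-phosphate dehydrogenase, the entry enzyme, had 14.0, 12.9 and 18.3 CPM in IL-10 hearts, against 21.6, 15.9 and 22.8 CPM in saline hearts. The groups overlapped through saline replicate 2 (log2 -0.42 ± 0.16 SE, edgeR adjusted p = 0.107), and 13.6% of its exon bases are shared with Ikbkg on the opposite strand, whose reads cannot be told apart in a kit that does not mark strand.

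Shares of isoforms put these pairs on 1 scale, as the percentage of a family's counts per exonic length. Slc2a4 made up 92.6% ± 1.48 in IL-10 hearts and 84.0% ± 5.22 in saline hearts of the 4 transporter genes (SD, n = 3 each), and Slc2a1 6.60% ± 1.59 in IL-10 hearts and 14.9% ± 4.92 in saline hearts. Among phosphofructokinase subunits Pfkm held 90.4% ± 0.718 in IL-10 hearts and 81.8% ± 2.70 in saline hearts, and Pfkp 3.69% ± 0.427 in IL-10 hearts and 8.74% ± 0.871 in saline hearts. Eno3 held 93.5% ± 1.14 in IL-10 hearts and 89.4% ± 2.22 in saline hearts of the enolases, Pgam2 94.7% ± 0.464 in IL-10 hearts and 91.7% ± 1.59 in saline hearts of the mutases, Ldha 24.4% ± 2.61 in IL-10 hearts and 31.5% ± 3.93 in saline hearts of the lactate dehydrogenases, and Slc16a1 98.7% ± 0.357 in IL-10 hearts and 96.8% ± 1.35 in saline hearts of the lactate carriers. In each of these 8 shares the IL-10 hearts lay outside the range of the saline hearts. Each had p = 0.10 by the two-sided exact permutation test, the smallest p that 3 against 3 allows, and 0.125 after adjustment over 10 shares, so none could pass. Hk2 held 64.0% ± 4.30 in IL-10 hearts and 58.0% ± 2.81 in saline hearts of the hexokinases, with overlapping groups (exact permutation p = 0.20). The size of some differences rests on the lengths used. With the longest coding transcript as length, IL-10 minus saline was 14.6 percentage points for Pfkm in place of 8.60, -10.8 for Pfkp in place of -5.06 and 7.86 for Eno3 in place of 4.14, with the same signs.

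**Figure D2:**
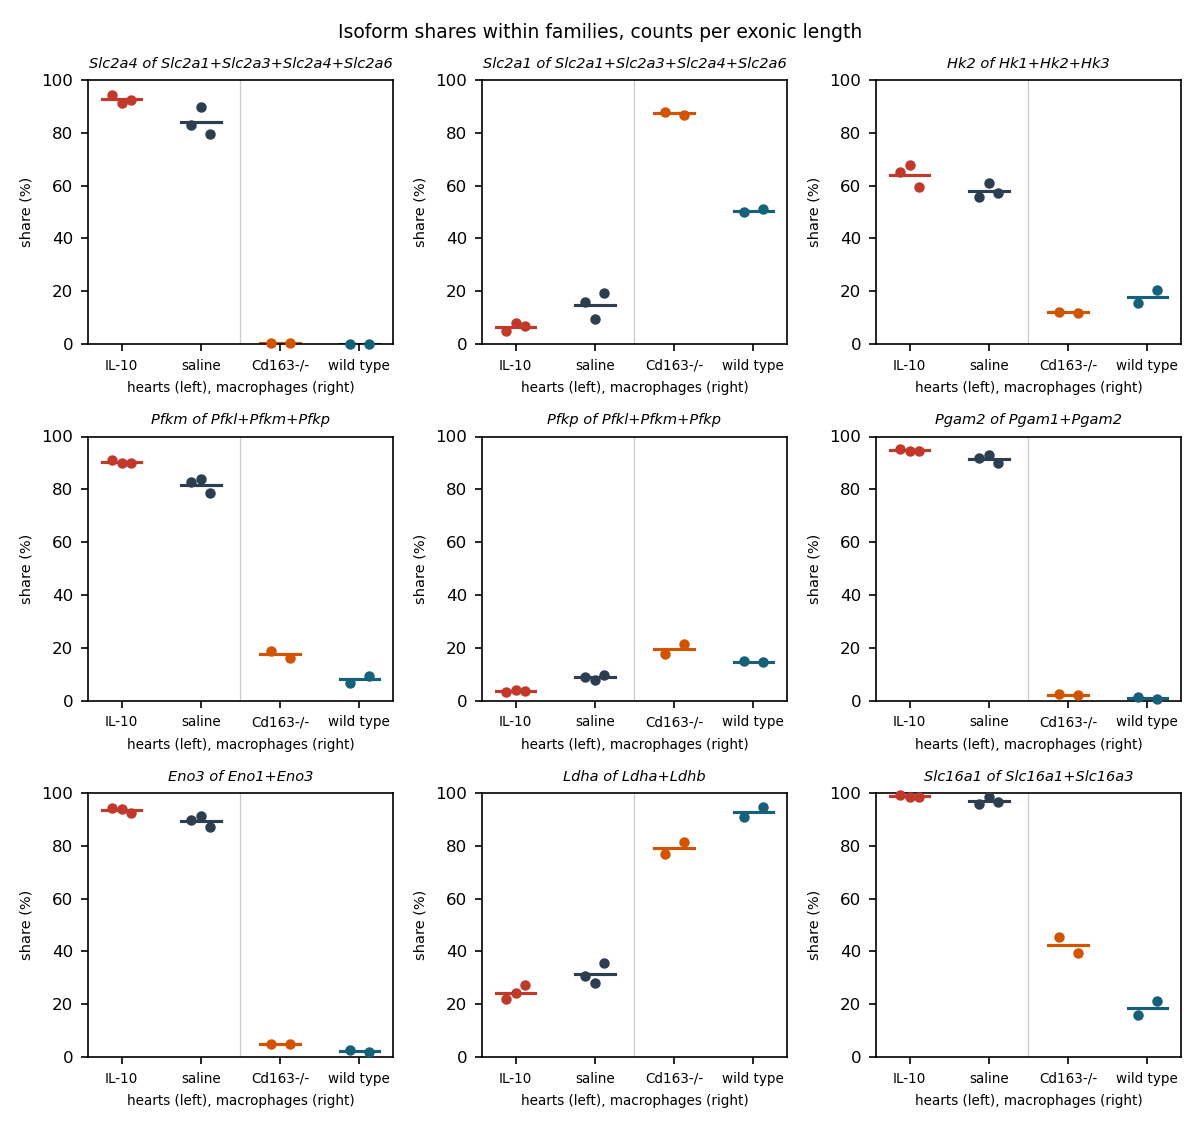
Each panel gives 1 isoform's share of its family in percent, from counts per exonic length, with 1 point per library and a bar at the group mean. IL-10 and saline hearts are on the left, Cd163-/- and wild-type macrophages on the right, and the axis starts at 0. In hearts Slc2a4, Pfkm, Pgam2 and Eno3 hold more of their families after IL-10, and in macrophages the Slc2a1 share is 87.4% in Cd163-/- against 50.6% in wild-type cells.

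Markers of other cells moved with the heart groups, beside 6.86% rises and 6.7% falls over all tested genes. The 6 dividing-cell markers summed to 6.61 to 8.79 CPM in IL-10 hearts and 42.1 to 57.3 CPM in saline hearts, and all 6 fell. The red blood cell markers summed to 300.5 to 548 CPM in IL-10 hearts and 583 to 1190 CPM in saline hearts, and all 5 tested ones fell. Of 7 fibroblast markers 2 rose, Dcn and Gsn (log2 0.47 and 0.90), and 2 fell, the collagen genes Col1a1 and Col1a2 (-1.34 and -1.12). Their summed level was 2601 to 3101 CPM after IL-10 and 2289 to 2464 CPM after saline. Of 6 endothelial markers 2 fell (782 to 891 CPM after IL-10 and 802 to 995 CPM after saline), and of 8 macrophage markers 1 fell (634 to 715 CPM after IL-10 and 444 to 753 CPM after saline). Of 5 tested smooth muscle markers 2 fell, Acta2 and Pdgfrb (694 to 852 CPM after IL-10 and 673 to 819 CPM after saline), and of 9 cardiomyocyte markers Mb rose and Actc1 fell. Of 11 skeletal muscle markers 4 were tested and Tnnt3 fell, with 7, 2 and 0 counts in IL-10 hearts and 17, 18 and 65 counts in saline hearts, while Myh1, Myh2 and Myh4 were at 0 counts in every heart. The summed level of the 11 was 3444 to 6075 CPM after IL-10 and 2814 to 4608 CPM after saline, nearly all of it Acta1. The part of these cells in the lower values of Slc2a1, Pfkp, Eno1, Slc16a3, Pgd, Taldo1 and Tkt was not tested.

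Genes around the pathway in IL-10 hearts mostly rose where they were called, beside 6.86% rises, 6.7% falls and a median of -0.0079 over all tested genes. Of 14 genes of pyruvate entry into mitochondria 3 rose and 0 fell (median log2 fold change 0.28). These were Pdk2, a kinase that switches pyruvate dehydrogenase off (log2 0.69, edgeR adjusted p = 0.00143), Pdpr, a regulator of its phosphatase (0.52), and Dlat, its E2 subunit (0.38). Pdk4, the kinase induced by fasting and fatty acids, had 142, 276 and 292 CPM in IL-10 hearts, against 171, 263 and 146 CPM in saline hearts, with overlapping groups (log2 0.29 ± 0.23 SE, edgeR adjusted p = 0.438). Of 15 glycogen genes 5 rose and 0 fell (median 0.24), among them Phkg1, a phosphorylase kinase subunit (log2 1.18), the glycogen phosphorylases Pygm (0.44) and Pygb (0.43), and Phkb (0.40). Of 4 gluconeogenesis genes tested 1 rose, Fbp2, the muscle fructose bisphosphatase (log2 1.03, edgeR adjusted p = 5.95e-04). Of 14 other transporters and isoforms tested 3 rose, among them Ldhd, the mitochondrial D-lactate dehydrogenase (log2 0.85), and Bsg, basigin, the partner of the lactate carriers (0.44), and 1 fell, Slc2a10 (-1.09). The third rise was Slc5a1, a sodium-coupled glucose carrier (log2 1.54), at 21 to 41 counts in IL-10 and 7 to 15 counts in saline hearts. Pdk2, Phkg1, Fbp2 and Ldhd were called under all 16 alternatives run. The calls of Bsg, Slc2a10, Dlat, Pygb, Phkb, Pygm, Slc5a1 and Pdpr were lost under 8, 7, 6, 6, 6, 5, 4 and 1 of 16, in that order (adjusted p up to 0.221). Each of these 8 was lost without IL-10 replicate 2, and all but Pdpr without saline replicate 1. None of 9 other pentose phosphate genes and none of 10 genes of the cytosolic NADH shuttles was called (medians 0.087 and 0.16).

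Of 18 regulators of glycolytic genes 5 rose and 0 fell in IL-10 hearts (median log2 fold change 0.27). Over all tested genes 6.86% rose and 6.7% fell. Klf15, a factor that raises Slc2a4 in muscle, had 29.7, 38.3 and 32.5 CPM in IL-10 hearts, against 17.0, 15.3 and 14.6 CPM in saline hearts. Every IL-10 heart was above every saline heart (log2 1.10 ± 0.13 SE, edgeR adjusted p = 7.68e-05). Irs2, an insulin receptor substrate, had 40.5, 24.0 and 13.9 CPM in IL-10 hearts, against 6.95, 5.54 and 11.7 CPM in saline hearts. The IL-10 hearts were widely spread and above the saline hearts (log2 1.69 ± 0.31 SE, edgeR adjusted p = 0.00184). Irs1 rose by 0.70 and Epas1, which encodes HIF-2α, by 0.56 on the log2 scale. Txnip, a brake on glucose uptake, was called at 0.93 (edgeR adjusted p = 0.0105) with overlapping groups, as IL-10 replicate 1 was below saline replicate 1, and the call was lost without IL-10 replicate 2 or saline replicate 3 and in DESeq2 (adjusted p from 0.0541 to 0.0697). Hif1a gave -0.24 (edgeR adjusted p = 0.162) and Ppargc1a, a coactivator of mitochondrial genes, 0.29 (edgeR adjusted p = 0.207). Of 17 hypoxia-inducible genes outside glycolysis 4 rose and 0 fell, with a median of -0.06. These were Mxi1 (log2 0.65), Egln1 (0.64), Bnip3 (0.61) and Ddit4 (1.40).

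In Cd163-/- macrophages the genes were mostly lower than in wild type. Called falls ran from the transporters Slc2a6 and Slc2a1 through Hk2, Pfkl, Pfkp and Pfkfb3 to Aldoa, Tpi1, Gapdh, Pgk1, Pgam1 and the lactate exporter Slc16a3. Slc2a3 and Ldhb rose. Of 33 genes 32 passed the count filter, and Slc2a4 (4 to 5 counts a library) did not. Among the 32, 2 rose and 12 fell by edgeR's quasi-likelihood test at an adjusted p under 0.05, where 13.1% of all 13861 tested genes rose and 13.3% fell (26.4% called). The share of falls is above the background and that of rises below it. As the genes were chosen with earlier results of these data known, these shares are a description only. The median log2 fold change over the 32 was -0.42, beside 0.012 over all tested genes, and the groups did not overlap, as lower, for 19 and, as higher, for 7, against 34.1% and 35.3% of all tested genes (69.4% in either direction). Summed over the 33 genes the level was 7055 and 6976 CPM in Cd163-/- and 9325 and 11770 CPM in wild-type macrophages.

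Scaling moved this count. Upper-quartile scaling and library size alone put the median of all genes at 0.13 and 0.19 on the log2 scale, with 62.2% and 68.6% of all called genes as rises in place of 49.6%. Under them 3 genes rose with 6 and 5 falls. Over all tested genes 16.7% and 19.2% rose and 10.1% and 8.8% fell. The median of the 32 genes was -0.31 and -0.25 under these scalings, before any allowance for that shift. With 1 library left out, a group holds 1 library, whose spread is taken from the other pair. The wild-type pair was the further apart, so calls in these fits depend on which pair is left. They cannot show whether a call rests on 1 library, and their p-values are not given. The median log2 fold change of the tested genes of the 33 was -0.37 without Cd163-/- replicate 1 and -0.47 without Cd163-/- replicate 2. It was -0.42 without wild-type replicate 1 and -0.37 without wild-type replicate 2. Under every alternative that kept all libraries, Slc2a1, Slc2a6, Pfkl, Slc16a3 and Pgk1 were called as falls and Slc2a3 and Ldhb as rises.

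**Figure D3:**
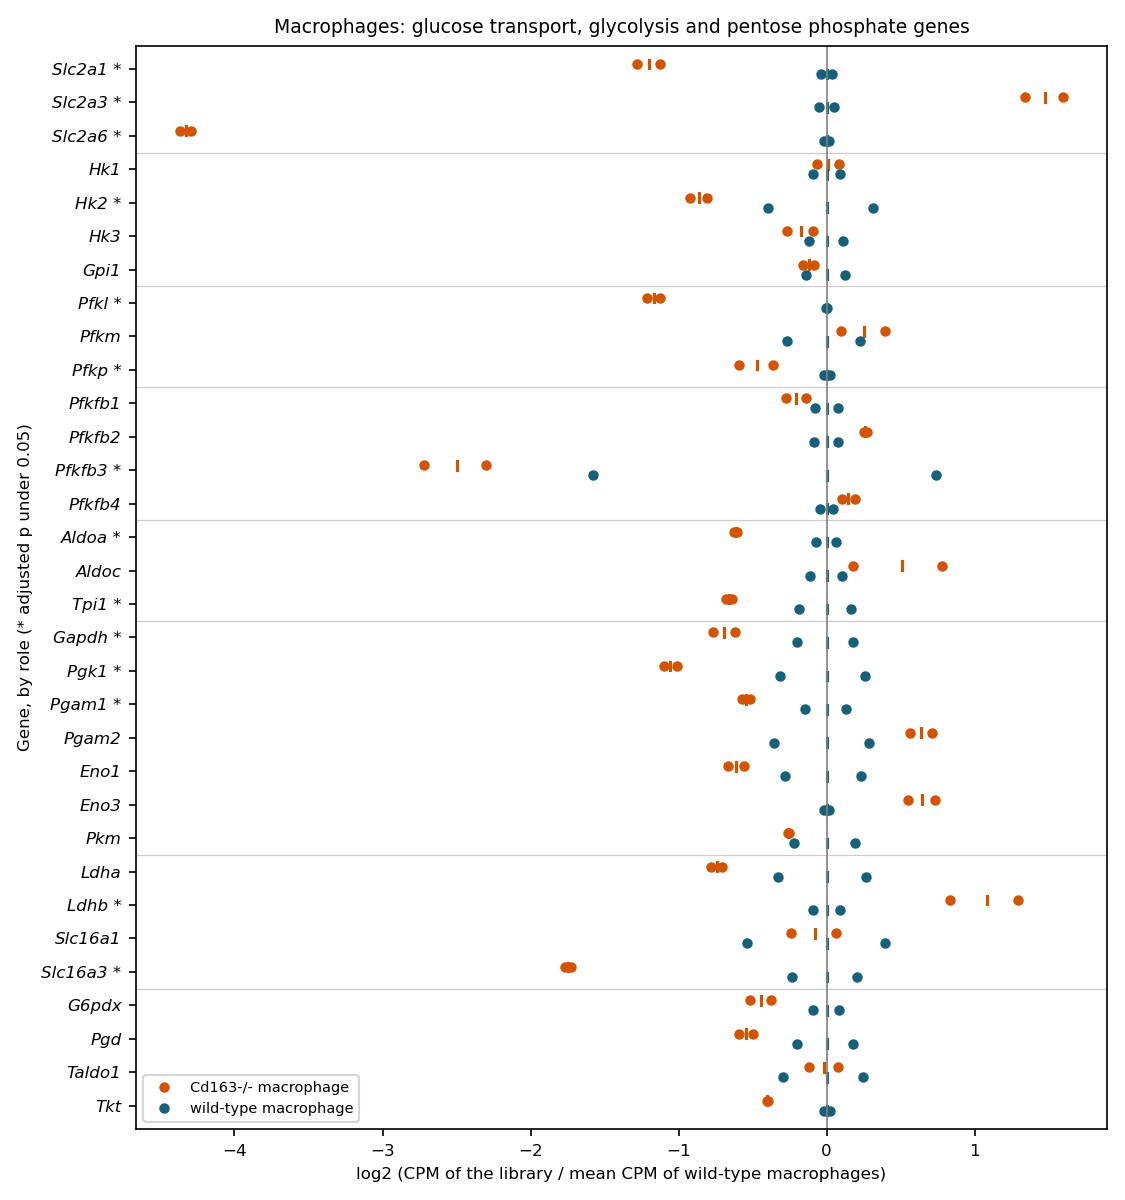
Each point is 1 macrophage library, as log2 of its CPM over the mean CPM of the 2 wild-type libraries, for the 32 genes that passed the count filter, in groups by role. In each row the upper points are Cd163-/- and the lower points wild-type libraries, short bars are group means of CPM, and a star marks an adjusted p under 0.05. Slc2a6 lies furthest to the left, and the 2 wild-type points of Pfkfb3 are far apart, at 164 and 818 CPM.

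Slc2a6 (chr2:27021363-27027998) had the largest fall of the 32. It had 7.17 and 7.56 CPM in Cd163-/- macrophages, against 147 and 149.6 CPM in wild-type macrophages. Replicates were close in both genotypes and the genotypes far apart. Slc2a6 was 20.1 times lower in Cd163-/- cells (log2 -4.33 ± 0.13 SE, edgeR adjusted p = 2.50e-04), and the log2 value was -4.32 without wild-type replicate 2. Slc2a1 had 76.2 and 68.7 CPM in Cd163-/- macrophages, against 162 and 171 CPM in wild-type macrophages, with both Cd163-/- libraries below both wild-type libraries (log2 -1.20 ± 0.12 SE, edgeR adjusted p = 0.00248). Slc2a3 moved the other way, from few reads, with 4.83 and 4.06 CPM in Cd163-/- macrophages, against 1.54 and 1.65 CPM in wild-type macrophages. Its counts were 97 and 73 in Cd163-/- and 26 in each wild-type library (log2 1.47 ± 0.28 SE, edgeR adjusted p = 0.0150). The log2 value was 1.34 without Cd163-/- replicate 1 and 1.58 without Cd163-/- replicate 2. Slc2a1 made up 87.4% ± 0.817 in Cd163-/- macrophages and 50.6% ± 0.608 in wild-type macrophages of the transporter genes' counts per length (SD, n = 2 each). The exact permutation test cannot go below p = 0.333 with 2 against 2.

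Hk2 had 69.6 and 75.1 CPM in Cd163-/- macrophages, against 100.1 and 163 CPM in wild-type macrophages. Both Cd163-/- libraries were lower, and wild-type replicate 2 was the highest. It was called at -0.86 (SE 0.23, edgeR quasi-likelihood adjusted p = 0.0425) and gave -0.47 without that library. Without Cd163-/- replicate 1 or 2 the log2 value was -0.81 and -0.93. The call was lost with library size alone and under upper-quartile scaling (edgeR adjusted p = 0.0767 and 0.0616). Hk3, the most abundant hexokinase here per kb, had 268 and 303 CPM in Cd163-/- macrophages, against 296 and 348 CPM in wild-type macrophages, and Hk1 had 91.6 and 102 CPM in Cd163-/- macrophages, against 89.8 and 102 CPM in wild-type macrophages. Both overlapped between genotypes (edgeR adjusted p = 0.424 and 0.954), as did Gpi1 (log2 -0.12, edgeR adjusted p = 0.595).

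Pfkl had 103 and 96.4 CPM in Cd163-/- macrophages, against 223 and 224 CPM in wild-type macrophages. The wild-type libraries were almost equal and both far above the Cd163-/- libraries (log2 -1.17 ± 0.12 SE, edgeR adjusted p = 0.00244). Pfkp had 57.1 and 67.0 CPM in Cd163-/- macrophages, against 84.8 and 87.2 CPM in wild-type macrophages, again with no overlap (log2 -0.47 ± 0.13 SE, edgeR adjusted p = 0.0399). This call was lost under upper-quartile scaling, with library size alone and with the replicate block (edgeR adjusted p = 0.0809, 0.109 and 0.0676). With 1 library left out the Pfkp log2 value ran from -0.60 to -0.36. Pfkm had 15.3 and 12.4 CPM in Cd163-/- macrophages, against 9.68 and 13.6 CPM in wild-type macrophages, with overlapping genotypes (log2 0.25 ± 0.22 SE, edgeR adjusted p = 0.430). Pfkm held 17.5% ± 2.00 in Cd163-/- macrophages and 8.01% ± 1.72 in wild-type macrophages of the phosphofructokinase counts per length, or 5.60 percentage points more in Cd163-/- cells with the longest coding transcript as length in place of 9.48.

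Pfkfb3 (chr2:11471433-11554077), the inducible maker of fructose 2,6-bisphosphate, had 74.6 and 99.9 CPM in Cd163-/- macrophages, against 164 and 818 CPM in wild-type macrophages. The wild-type libraries differed from each other more than either Cd163-/- library differed from wild-type replicate 1. Pfkfb3 was called at -2.49 (SE 0.70, edgeR quasi-likelihood adjusted p = 0.0467), and without wild-type replicate 2 the log2 value was -0.92, against -3.23 without wild-type replicate 1. It gave -2.29 without Cd163-/- replicate 1 and -2.73 without Cd163-/- replicate 2. The call was lost under upper-quartile scaling and with library size alone (edgeR adjusted p = 0.0548 and 0.0573) and in limma-voom (adjusted p = 0.0647). The other 3 bifunctional enzymes were within -0.20 and 0.26 on the log2 scale and were not called (edgeR adjusted p from 0.341 to 0.644).

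Of the trunk enzymes 5 fell, each with both Cd163-/- libraries below both wild-type libraries. Pgk1, which makes the first ATP of glycolysis, had 364 and 343 CPM in Cd163-/- macrophages, against 590.2 and 881 CPM in wild-type macrophages (log2 -1.06 ± 0.22 SE, edgeR adjusted p = 0.0201). Wild-type replicate 2 was the highest of the 4, and without it the log2 value was -0.74. Aldoa had 853 and 863 CPM in Cd163-/- macrophages, against 1251 and 1376 CPM in wild-type macrophages, a log2 difference of -0.61. Tpi1 gave -0.66, Gapdh -0.69 and Pgam1 -0.54, and the edgeR adjusted p of these 4 ran from 0.0288 to 0.0475. For Gapdh the near-identical genes held 33.1% to 40.6% of its own counts, and with these added the log2 value was -0.64 (adjusted p = 0.0417). The calls of Aldoa, Tpi1, Gapdh and Pgam1 were lost with library size alone (edgeR adjusted p from 0.0676 to 0.119) and with the replicate block (edgeR adjusted p from 0.059 to 0.116). Without Cd163-/- replicate 1 the log2 values were -1.1 for Pgk1, -0.605 for Aldoa, -0.68 for Tpi1, -0.77 for Gapdh and -0.51 for Pgam1. Without Cd163-/- replicate 2 they were -1.02, -0.63, -0.65, -0.63 and -0.58, in that order. Without wild-type replicate 2 Tpi1 gave -0.48 and Pgam1 -0.40.

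Eno1 had 593 and 550.2 CPM in Cd163-/- macrophages, against 718 and 1027 CPM in wild-type macrophages, and Pkm had 1209 and 1204 CPM in Cd163-/- macrophages, against 1240.3 and 1645 CPM in wild-type macrophages. In both genes wild-type replicate 2 stood above the other 3 libraries, and neither passed (log2 -0.61 and -0.26, edgeR adjusted p = 0.0807 and 0.385). The muscle forms were low and on the other side of 0. Eno3 had 10.2 and 8.94 CPM in Cd163-/- macrophages, against 6.18 and 6.04 CPM in wild-type macrophages (log2 0.65 ± 0.19 SE, edgeR adjusted p = 0.0515), and Pgam2 had 3.19 and 2.89 CPM in Cd163-/- macrophages, against 2.38 and 1.53 CPM in wild-type macrophages (log2 0.63, edgeR adjusted p = 0.197). Aldoc, the brain-type aldolase, gave 0.51 (edgeR adjusted p = 0.172). The Cd163-/- libraries were the higher ones in these 3 genes, with no call.

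Of the lactate genes Slc16a3 fell and Ldhb rose. Slc16a3 had 41.6 and 42.8 CPM in Cd163-/- macrophages, against 119.9 and 163 CPM in wild-type macrophages. The Cd163-/- libraries were nearly equal and far below both wild-type libraries, a difference of 3.35 times (log2 -1.74 ± 0.17 SE, edgeR adjusted p = 0.00231). Slc16a1 had 28.7 and 23.3 CPM in Cd163-/- macrophages, against 19.0 and 36.1 CPM in wild-type macrophages, where the 2 wild-type libraries lay on either side of the Cd163-/- libraries (edgeR adjusted p = 0.867). Ldha had 643 and 610.5 CPM in Cd163-/- macrophages, against 836 and 1262 CPM in wild-type macrophages. Its log2 value of -0.74 (SE 0.23) had an edgeR adjusted p = 0.0609. Ldha passed in DESeq2 (adjusted p = 0.00833). It did not pass under upper-quartile scaling, with library size alone or with the replicate block (edgeR adjusted p from 0.0899 to 0.117). Without wild-type replicate 2 the Ldha log2 value was -0.42. Ldhb (chr6:142490249-142507957) had 91.0 and 66.3 CPM in Cd163-/- macrophages, against 39.4 and 34.8 CPM in wild-type macrophages. Both Cd163-/- libraries were above both wild-type libraries, and Ldhb rose (log2 1.08 ± 0.18 SE, edgeR adjusted p = 0.0105). Without Cd163-/- replicate 1 its log2 value was 0.84. Ldha made up 79.2% ± 3.08 in Cd163-/- macrophages and 92.7% ± 2.52 in wild-type macrophages of the lactate dehydrogenase counts per length, and Slc16a1 42.5% ± 4.14 in Cd163-/- macrophages and 18.5% ± 3.60 in wild-type macrophages of the lactate carriers (SD, n = 2 each).

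None of the 4 pentose phosphate enzymes was called in macrophages, and all 4 log2 values were below 0. G6pdx had 188 and 207 CPM in Cd163-/- macrophages, against 285 and 252 CPM in wild-type macrophages (log2 -0.45 ± 0.14 SE, edgeR adjusted p = 0.0584). Pgd had 409 and 435 CPM in Cd163-/- macrophages, against 696 and 536 CPM in wild-type macrophages (log2 -0.54 ± 0.18 SE, edgeR adjusted p = 0.0692). Tkt had 318 and 319 CPM in Cd163-/- macrophages, against 426 and 415 CPM in wild-type macrophages (log2 -0.40 ± 0.13 SE, edgeR adjusted p = 0.0673). In these 3 both Cd163-/- libraries were below both wild-type libraries, as in 34.1% of all tested genes. All 3 passed in DESeq2 (adjusted p = 0.0351, 0.0231 and 0.0285). None of the 3 passed under upper-quartile scaling, with library size alone or with the replicate block (edgeR adjusted p from 0.121 to 0.226). Taldo1 had 296 and 258 CPM in Cd163-/- macrophages, against 332 and 229 CPM in wild-type macrophages, with the Cd163-/- libraries between the wild-type libraries (log2 -0.02). Of 9 other genes of the pathway 1 rose and 3 fell, beside 13.1% rises and 13.3% falls over all tested genes. The rise was Prps2, which makes phosphoribosyl pyrophosphate (log2 0.96). The falls were the pentose isomerase Rpia (-0.96), the epimerase Rpe (-0.54) and Tigar (-0.62), a phosphatase that lowers fructose 2,6-bisphosphate. The calls of Rpe and Tigar were lost under upper-quartile scaling, with library size alone and with the replicate block (edgeR adjusted p from 0.0544 to 0.124). With 1 library left out the log2 values ran from -0.71 to -0.36 for Rpe and from -0.77 to -0.47 for Tigar. They ran from -1.02 to -0.90 for Rpia and from 0.88 to 1.04 for Prps2.

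Markers of other cells also moved with the macrophage genotype, beside 13.1% rises and 13.3% falls over all tested genes. The 5 mesothelial markers summed to 213 to 258 CPM in Cd163-/- and 80.5 to 115 CPM in wild-type cultures, and 3 rose. Fibroblast markers summed to 3204 to 3699 CPM in Cd163-/- and 1574 to 2275 CPM in wild-type cultures, with 4 rises and 1 fall among 6 tested. Smooth muscle markers summed to 423 to 720.0 CPM in Cd163-/- and 189 to 248 CPM in wild-type cultures, with 2 rises of 5 tested. Neutrophil markers summed to 49.7 to 98.0 CPM in Cd163-/- and 166 to 329 CPM in wild-type cultures, with 2 falls of 2 tested, Csf3r, which made up most of the sum, and S100a8. The other neutrophil markers S100a9, Ly6g, Mpo and Retnlg were at 0 or 1 count in every library. Skeletal muscle markers summed to 12.6 and 12.8 CPM in Cd163-/- and 4.87 and 4.89 CPM in wild-type cultures, with rises of Tnni2, Myh1 and Actn3 among 6 tested. Of 6 dividing-cell markers Mki67 fell and 5 were not called (149 to 245 CPM in Cd163-/- and 282 to 291 CPM in wild-type cultures). Of 8 macrophage markers Mrc1 rose (log2 1.76), and Cd14 (-3.33) and Adgre1 (-0.80) fell. The part of these cells in the results, Eno3 and Pgam2 included, was not tested.

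Around the pathway, macrophage genes were called in both directions, beside 13.1% rises, 13.3% falls and a median of 0.012 over all tested genes. Of 15 regulators tested 3 rose and 4 fell (median log2 fold change 0.17). Hif1a, the oxygen-regulated factor that drives glycolytic genes, had 142 and 156 CPM in Cd163-/- macrophages, against 323 and 474 CPM in wild-type macrophages. Both Cd163-/- libraries were lower (log2 -1.42 ± 0.21 SE, edgeR adjusted p = 0.00738), and the log2 value was -1.35 and -1.50 without Cd163-/- replicate 1 and 2. Arrdc4, an arrestin of the Txnip family that limits glucose uptake, fell (-2.09), as did Mlx, the partner of the glucose sensors MondoA and ChREBP (-0.93), while Irs2 rose (1.12). Txnip gave 0.67 (edgeR adjusted p = 0.0884) and Pdk4 1.32 (edgeR adjusted p = 0.137). Of 17 hypoxia-inducible genes outside glycolysis 4 rose and 3 fell (median -0.16), with rises in Mxi1 (1.50), Ndrg1 (1.06) and Bhlhe40 (0.93) and a fall in the prolyl hydroxylase Egln3 (-1.78). Without Cd163-/- replicate 1 the log2 values were -0.86 for Mlx, 1.03 for Ndrg1 and 0.86 for Bhlhe40.

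Of 14 genes of pyruvate entry 2 rose, Pdp1 (log2 1.48), a pyruvate dehydrogenase phosphatase, and Pdk2 (1.28), and 2 fell, Dld (-0.93) and Pdhx (-0.67), subunits of the complex (median -0.12). Gpd2, the mitochondrial glycerol 3-phosphate dehydrogenase that takes electrons from cytosolic NADH, had 35.5 and 41.1 CPM in Cd163-/- macrophages, against 239 and 236 CPM in wild-type macrophages (log2 -2.63 ± 0.13 SE, edgeR adjusted p = 4.79e-04). It was among 2 falls and 3 rises of 10 shuttle genes (median 0.11). The cytosolic partner Gpd1 rose (2.63) at 31 and 42 counts in Cd163-/- and 8 and 2 counts in wild-type libraries. The Gpd1 value was 3.85 without wild-type replicate 1 and 2.00 without wild-type replicate 2. It was 2.91 without Cd163-/- replicate 1 and 2.30 without Cd163-/- replicate 2. The Gpd1 call was lost with the replicate block (edgeR adjusted p = 0.0528). Of 12 glycogen genes tested 2 rose, Gyg (0.79) and Pygb (0.73), and 1 fell, the branching enzyme Gbe1 (-1.45), with a median of 0.091. Of 9 other transporters and isoforms 2 rose, Slc2a8 (1.11) and Slc2a9 (1.01), and 2 fell, the enolase Eno2 (-1.15) and the ADP-dependent glucokinase Adpgk (-0.62), with a median of 0.54. None of 3 gluconeogenesis genes tested was called (median 0.22). Of the genes named here, all but Gpd1 and Adpgk were called under every alternative that kept all libraries. The call of Adpgk was lost with library size alone (edgeR adjusted p = 0.0543). Without Cd163-/- replicate 1 the log2 values were 1.28 for Pdk2, -0.88 for Dld, 0.90 for Slc2a9 and -0.59 for Pdhx. They were 0.86 for Gyg, 0.68 for Pygb, 1.05 for Slc2a8 and -0.70 for Adpgk.

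The 2 comparisons share no sample, and 30 of the genes were tested in both. Slc2a1, Pfkp and Slc16a3 fell both in IL-10 hearts relative to saline and in Cd163-/- relative to wild-type macrophages. They are 42.9% of the 7 falls in hearts and 25.0% of the 12 in macrophages, or 3 of the 11 macrophage falls among the 30 genes. Of the 30 genes 11, or 36.7%, fell in macrophages and 7, or 23.3%, fell in hearts, so the shares among falls are close to those among all 30. No gene rose in both, and no gene was called in opposite directions. Across the 30 genes the 2 sets of log2 fold changes had a Pearson r of 0.475 and a Spearman rho of 0.513, a description across genes, which are not independent replicates. The genotype compared in macrophages is shared by all hearts, and the treatments differ, so the comparisons answer different questions.

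**Figure D4:**
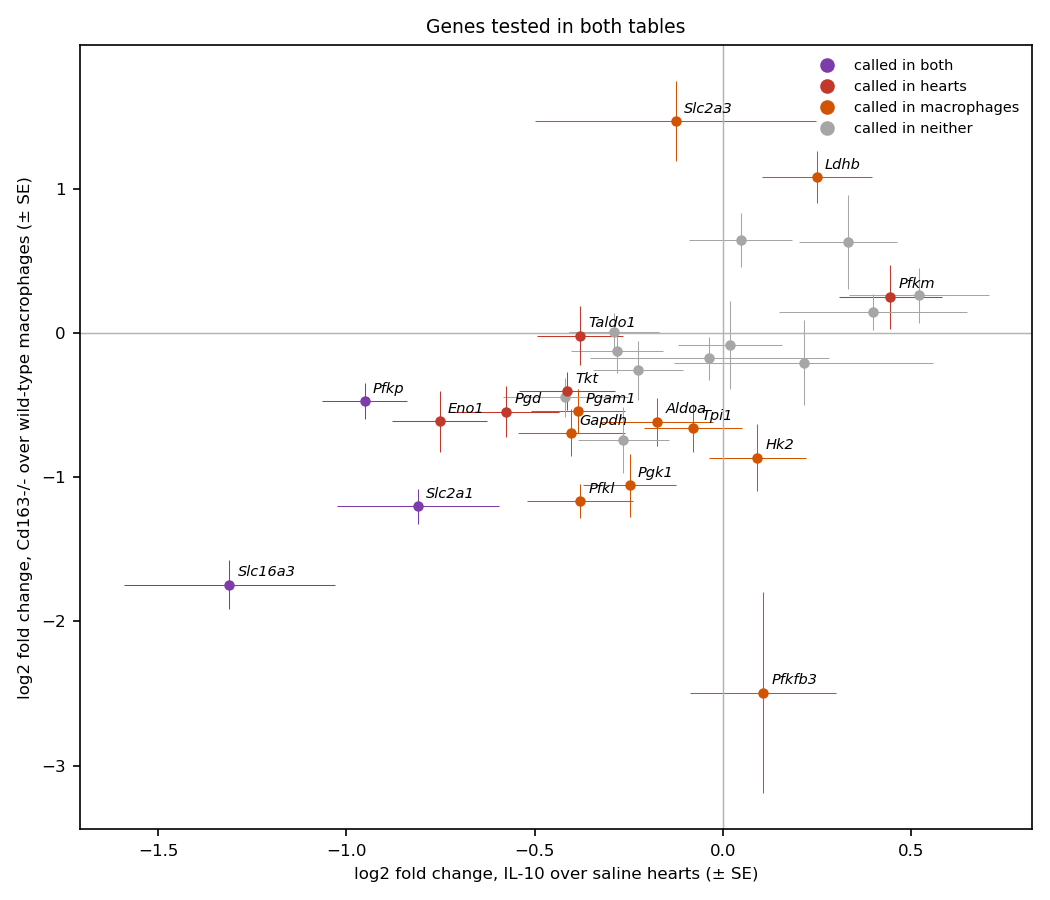
Each point is 1 of the 30 genes tested in both tables, with the log2 fold change of IL-10 over saline hearts on the x axis, that of Cd163-/- over wild-type macrophages on the y axis, and bars of 1 SE. Named genes were called in at least 1 comparison. Slc16a3, Slc2a1 and Pfkp lie at the lower left, called in both, while Pfkfb3 is far below 0 for macrophages only and has the longest bar.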

How the data were processed

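Gene counts of 6 hearts and 4 macrophage libraries were analysed, each table alone. The authors counted reads per gene to make the deposited counts. Per the submitters' processing notes the tools were HISAT2 2.2.1 and featureCounts, whose version is not given in the sources used here. The same notes name GRCm39 and mm10, which leaves the build behind the counts unsettled, and printed coordinates are those of GENCODE M21 on GRCm38. Per the labels' protocols the library kit was NEBNext Ultra RNA, which does not mark strand, and livers are named as the RNA source, in contrast to the sample labels of hearts and macrophages. GENCODE named 52081 of 55357 identifiers, and 0 value columns were left without a sample.

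In R 4.3.3, genes were kept by filterByExpr of edgeR 4.0.16 (minimum count 10, minimum total 15), libraries scaled by TMM, and groups compared by the quasi-likelihood test of edgeR (fold changes are IL-10 over saline and Cd163-/- over wild type), with p-values adjusted by Benjamini-Hochberg across the whole table (called under 0.05). CPM use TMM-scaled library sizes, and SE is the absolute log2 fold change over the square root of F. A floor of 3 counts is 0.192 to 0.220 CPM in hearts and 0.149 to 0.191 CPM in macrophages, for counting error only. Near-identical genes matched a transcript at 95% identity or more over at least 200 bases. Isoform shares divide counts by exonic length and were compared with exact two-sided permutation tests. Promoters are RefSeq's, searched over 250 bases before the start. The members and all gene lists were chosen with earlier results of these data known. All members are described, those called in full, and up to 4 called genes of each other list with the smallest p are named, beside Pdk4, Hif1a, Txnip, Irs2 and Ppargc1a. On data simulated with 200 changed genes the heart fit recovered 79% of 2-fold and 97% of 4-fold changes with 12 false calls, and the macrophage fit 47% and 93% with 18. The real data had 1860 genes called in hearts and 3663 in macrophages, and the simulation used the fitted spread of each gene. These shares therefore need not hold for the real data. Alternatives were other scalings and filters, DESeq2 1.42.0, limma-voom (limma 3.58.1), the replicate number as a block, mitochondrial genes or 1 library left out and, added after seeing the data, counts of near-identical genes, another exon length and a crossed block. A lone library in a group was taken to vary like the other group.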

Additional observations from a re-analysis of the deposited data

How the results depend on the processing

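With 1 library left out, the number of genes called ran from 4 to 12 in hearts (0 to 4 rises, 3 to 9 falls, and 897 to 1968 genes of the whole table) and from 4 to 15 in macrophages (0 to 2 rises, 4 to 13 falls, and 734 to 3811 genes). In hearts rises numbered 1 under upper-quartile scaling and 0 with library size alone, where 39.0% and 35.6% of all called genes were rises in place of 50.6%. Over all tested hearts' genes 5.2% and 4.0% rose under them. In macrophages 9 genes were called under upper-quartile scaling (6 falls), 8 with library size alone (5 falls), and 9 with the replicate block (7 falls). Over all genes tested in macrophages 10.1%, 8.8% and 9.7% fell under these settings, in that order. Deviations from the group mean correlated, between same-numbered libraries, at -0.179 to 0.042 in hearts and -0.113 in macrophages. With 2 libraries in a group the macrophage values are 1 number with either sign. In hearts the deviations of a group sum to 0, which ties the values to each other. Whether the replicate numbers pair the samples can therefore not be told from them. With the block 2 genes rose and 5 fell in hearts, where 5.6% of all tested genes rose and 5.5% fell. With macrophage pairs crossed (correlation 0.113, chosen after seeing the data) 3 rose and 16 fell. The whole table then had 4595 genes called, with 17.3% of all tested genes as rises and 15.9% as falls. Without a filter the falls were 10 in hearts and 16 in macrophages, beside 4.54% and 9.98% of all genes then tested. None of the 9 genes called in hearts and 14 in macrophages changed sign. Of uncalled genes, signs changed in hearts for Eno3 (-0.00209 under upper-quartile scaling, -0.0122 with library size alone) and Slc16a1 (-0.0292 and -0.0428). In macrophages they changed with library size alone for Hk3 (1.29e-04), Gpi1 (0.0564), Slc16a1 (0.0986) and Taldo1 (0.161), under upper-quartile scaling for Slc16a1 (0.0364) and Taldo1 (0.0951), and for Taldo1 in limma-voom (0.00553) and with the replicate block (0.00459) or crossed block (0.00456). With 1 library left out, log2 values spanned 0 in hearts for Slc2a3 (-0.508 to 0.201), Hk2 (-0.00858 to 0.209), Hk3 (-0.208 to 0.238), Pfkfb1 (-0.0994 to 0.491), Pfkfb3 (-0.0547 to 0.289), Tpi1 (-0.153 to 0.0278), Eno3 (-0.0399 to 0.190) and Slc16a1 (-0.0661 to 0.172), and in macrophages for Hk1 (-0.0793 to 0.102), Gpi1 (-0.248 to 0.0129), Slc16a1 (-0.474 to 0.453) and Taldo1 (-0.265 to 0.275). The causes were not tested, except that a left-out library also means fewer samples. Isoform shares kept their direction under every alternative run. Genes removed by the count filter have no test at this depth.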
